A study of Mus musculus with 8 samples.

Results

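Glucose, fructose and lactate cross the plasma membrane through 2 carrier families, and the mRNA levels of 9 genes of this transport system were compared between microglia and bone marrow-derived macrophages (BMDM) of mouse brain tumors. The 9 genes were picked by name from a table of 55450 genes: 6 hexose carriers of the SLC2 (GLUT) family, 2 monocarboxylate carriers of the SLC16 (MCT) family, and Bsg, which encodes their chaperone basigin. All 9 passed the filter on low counts, which left 16467 genes. Cells came from GL261 glioma grown orthotopically in the brains of mice labelled WT, with an isogenic host, and the age of the mice is not given in the labels. The 3 microglia libraries were sorted as F4/80+ CD11b+ CD45 low, Ly6C low or negative, Ly6G- and CD49d low or negative. The 5 BMDM libraries were sorted as F4/80+ CD11b+ CD45+, Ly6C low or negative, Ly6G- and CD49d high. None of the 9 transporter genes encodes a protein of either gate. The labels do not say which libraries came from separate mice or from pools, so the p-values cover only the spread among these samples, which may be technical. In bulk RNA of this kind, a smaller share of cells carrying a transcript and less of it per cell cannot be told apart.

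Hexoses enter cells by facilitated diffusion, down their own gradient, and each GLUT protein has its own sugar preference and its own place in the cell. GLUT1 and GLUT3 carry glucose at the cell surface, GLUT5 carries fructose, GLUT6 and GLUT8 sit mainly on inner membranes, and GLUT9 carries urate. Lactate leaves or enters with a proton through MCT1 or MCT4, and both need basigin to reach the surface. In the brain, GLUT5 has long served as a marker of microglia.

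The libraries held 5890406 to 16659154 counts and differed in ways the group labels do not cover. The share of Gm42418, a gene model lying over ribosomal RNA, was 34% to 47% in microglia, between 14.8% and 19.8% for BMDM 1 to 3, and as high as 41.2% and 48.9% for BMDM 4 and 5. At an equal depth of 4151079 counts, with Gm42418 and mitochondrial rRNA left out, BMDM 4 and 5 gave 13343 and 14536 genes, and the other 6 libraries 17336 to 21916. The fold changes and ratios of the 9 genes are therefore given with and without BMDM 4 and 5, while correlations are over all 8 libraries only. Summed over 8 microglia markers such as P2ry12 and Sall1, microglia reached 1383 to 3807 CPM (counts in 1000000 counts of the library, scaled with TMM factors) and BMDM 204 to 770. For 8 monocyte-derived markers such as Ccr2 the ranges were 131 to 164 in microglia and 651 to 3215 in BMDM. That list holds Itga4, the gene of the sorted protein CD49d (7.10 to 17.5 CPM in microglia, 48.6 to 97.2 in BMDM), so in part it restates the sort. It also holds Ly6c2, at 1.45 to 9.10 CPM in microglia and 61.1 to 391 in BMDM, although both gates were Ly6C low or negative. Ccr2, which is not in the gates, was at 3.32 to 5.57 and 84.0 to 191 CPM. Markers of other cell types were counted as well. Summed astrocyte and tumor cell markers (8 genes) were at 192 to 274 CPM in microglia and 45.3 to 127 in BMDM, neutrophil markers (6 genes) at 2.45 to 8.89 and 26.2 to 91.7, and T or NK cell markers (7 genes) at 2.78 to 7.10 and 15.2 to 53.2. For neurons (6 genes) the range was 21.2 to 39.5 CPM in microglia and 18.5 to 78.8 in BMDM, for endothelium (8 genes) 36.8 to 65.8 and 65.7 to 88.9, for oligodendrocytes (5 genes) 71.6 to 81.5 and 52.5 to 103, and for erythroid cells (6 genes) 110 to 248 and 27.6 to 161. No marker of any list was at 0 in every library. Among defining markers, Ly6g of neutrophils was at 0 in all 3 microglia libraries and had 1 count each in BMDM 3 and BMDM 5. The part of these cells in the transporter results was not tested.

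The fructose transporter gene Slc2a5 was the clearest difference in the set. It was 18.7-fold lower in BMDM, and its lowest microglia library lay above its highest BMDM library. Of the 9 genes it was the only 1 called, so 1 was lower and 0 were higher in BMDM in the quasi-likelihood test of edgeR, adjusted over all genes by Benjamini and Hochberg's method at a threshold of 0.05, where 0.814% of all genes tested were called lower and 1.11% higher. Slc2a5 (GRCm38 chromosome 4, 150119283 to 150144169, forward strand) had 1481, 217 and 693 counts in microglia 1, 2 and 3. In BMDM 1 to 5 it had 6, 9, 98, 0 and 17 counts. Scaled for depth, these were 77.9, 21.8 and 77.1 CPM in microglia and 0.799, 1.11, 11.2, 0 and 2.35 CPM in BMDM. Microglia 2 was the low library of its group and BMDM 3 the high library of the other, and the former still lay above the latter. The 0 in BMDM 4 carries an exact 95% interval of 0 to 0.587 CPM, and the 6 counts of BMDM 1 carry an interval of 0.293 to 1.74 CPM. Such intervals cover counting error only. The group means were 58.9 ± 32.1 CPM (SD, n = 3) in microglia and 3.09 ± 4.62 (n = 5) in BMDM. The log2 fold change, BMDM minus microglia, was -4.22 (SE 0.93, 95% interval -6.22 to -2.23, edgeR adjusted p = 0.0307). The call was lost without any 1 of the 3 microglia libraries (adjusted p 0.136 to 0.297), without BMDM 1 (0.0868) or BMDM 2 (0.0728), and with library totals in place of TMM factors (0.0630). Without BMDM 3 the value was -5.75 (adjusted p = 0.00639), and with BMDM 1 to 3 alone it was -3.72 (SE 0.86, adjusted p = 0.0165). BMDM 3 also held the highest sum of the 8 microglia markers in its group, 770 CPM against 204 to 475 in the other 4, and the part of microglia in its Slc2a5 counts was not tested.

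The plot of CPM by library shows how Slc2a5 stood apart from the other 8 genes, whose groups overlapped.

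**Figure D1:**
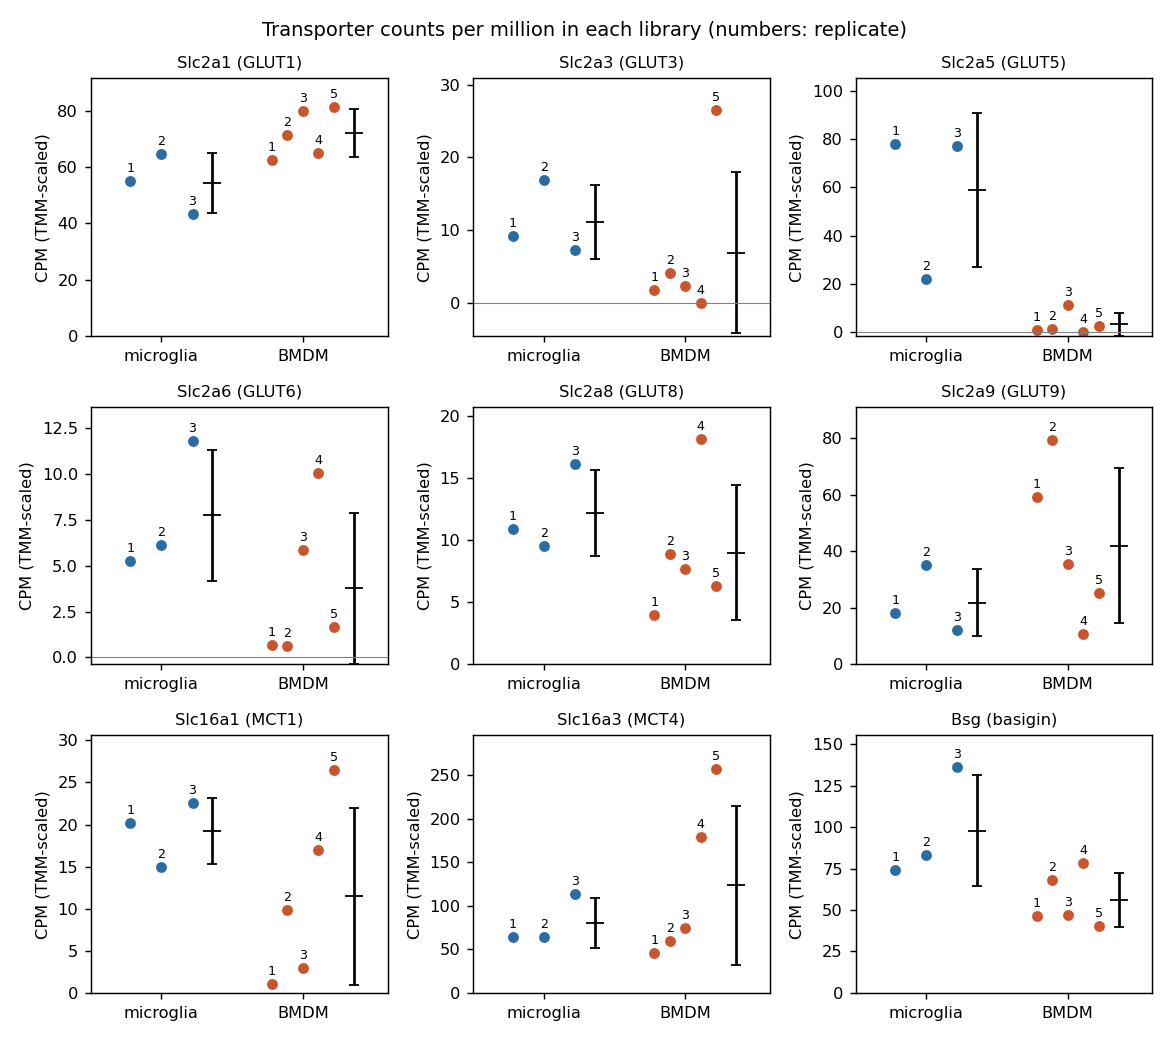
TMM-scaled CPM (vertical axis, linear, 1 panel per gene) in 3 microglia and 5 BMDM libraries; numbers are replicate numbers, and the bar gives the mean and SD of each group. Slc2a5 is at 21.8 CPM or more in microglia and at 11.2 CPM or less in BMDM, while Slc16a3 is far higher in BMDM 4 and 5 than in BMDM 1 to 3.

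The promoters of Slc2a5 and of the glucose carrier Slc2a1 are shown because Slc2a5 was the gene called and Slc2a1 the steadiest of the set. Promoter sequences (250 bases before to 50 bases after the RefSeq start, GRCm38.p6) were held for 7 of the 9 genes and come from RefSeq. They were searched on both strands for ACGTG and GCGTG, the core that hypoxia-inducible factors recognise, for the E box CACGTG, which contains ACGTG, and for GAGGAA, a core of PU.1 sites. Capitals mark matches to any of the 4. The Slc2a5 sequence is chr4:150119094-150119393, forward strand, and that of Slc2a1 is chr4:119108495-119108794, forward strand.
Slc2a5: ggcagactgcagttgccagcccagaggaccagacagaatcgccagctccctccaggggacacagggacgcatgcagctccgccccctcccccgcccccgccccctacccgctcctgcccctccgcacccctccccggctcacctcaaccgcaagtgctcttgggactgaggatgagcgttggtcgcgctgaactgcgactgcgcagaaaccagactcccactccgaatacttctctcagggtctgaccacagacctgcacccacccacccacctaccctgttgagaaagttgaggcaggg
Slc2a1: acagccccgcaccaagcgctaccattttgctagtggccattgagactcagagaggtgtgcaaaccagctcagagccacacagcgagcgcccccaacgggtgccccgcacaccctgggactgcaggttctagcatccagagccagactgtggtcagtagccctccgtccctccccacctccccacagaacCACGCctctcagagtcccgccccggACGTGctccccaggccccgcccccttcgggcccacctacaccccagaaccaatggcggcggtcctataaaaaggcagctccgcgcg
The Slc2a5 window held none of the 4 motifs, which says only that these letters are not in these 300 bases. In the Slc2a1 window ACGTG began 36 bases before the start, and the reverse complement of GCGTG began 61 bases before it. Across 32851 promoters of this length, 19.6% held ACGTG, 32.4% GCGTG, 7.15% CACGTG and 28.3% GAGGAA. Both windows were 65.3% G or C, above the median of 52.7% over all promoters.

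Slc2a1, the gene of the widespread glucose carrier GLUT1 (chromosome 4, 119108711 to 119137983), varied least across libraries within each group. It was at 55.0, 64.8 and 43.3 CPM in microglia 1, 2 and 3. In BMDM 1 to 5 it was at 62.4, 71.4, 80.0, 65.1 and 81.3 CPM. The highest BMDM library was 1.30 times the lowest, and 4 of the 5 lay above every microglia library, with BMDM 1 just under microglia 2. This difference missed the threshold (log2 fold change 0.41, SE 0.31, 95% interval -0.26 to 1.07, adjusted p = 0.674). The value was 0.40 with BMDM 1 to 3 alone (SE 0.26, adjusted p = 0.329). The interval thus reached from a slightly lower to a roughly doubled level in BMDM, and included no change.

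Slc2a3 encodes GLUT3, a glucose carrier of high affinity best known from neurons (chromosome 6, 122727809 to 122801640). It was at 9.15, 16.9 and 7.23 CPM in microglia. In BMDM 1 to 3 it was at 1.73, 4.06 and 2.29 CPM. In BMDM 4 it had 0 counts (exact 95% interval 0 to 0.587 CPM), and in BMDM 5 it reached 26.5 CPM, from 192 counts. The first 4 BMDM libraries thus lay below every microglia library and BMDM 5 above them all. Over all libraries the log2 fold change was -0.68 (SE 1.11, 95% interval -3.06 to 1.70, adjusted p = 0.879). Without BMDM 5 it was -2.43 and missed the threshold (adjusted p = 0.196). With BMDM 1 to 3 alone it was called lower, at -2.03 (SE 0.60, adjusted p = 0.0444), a fit in which 8.11% of all genes were called lower and 6.35% higher. Neuron markers summed to 35.5 CPM in BMDM 5, inside the range of the other BMDM libraries (18.5 to 78.8). Summed astrocyte and tumor cell markers were higher in BMDM 5 (127 CPM) than in the other BMDM libraries (45.3 to 83.7). Among BMDM libraries, Nes, Sox2, Olig2 and Cspg4 were highest there, but Gfap and Aqp4 had 0 counts and Slc1a3 (9.95 CPM) lay below BMDM 1 to 3. Summed monocyte-derived markers were lower in BMDM 5 (651 against 1845 to 3215), Lyz2 among them (221 against 1269 to 2279). Itga4 (97.2), F10 (89.4) and Ms4a8a (11.7) were instead highest of the BMDM libraries there. The part of these cells in the Slc2a3 value was not tested.

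Neither gene for a carrier of inner membranes passed the test. Slc2a6 encodes GLUT6, a lysosomal carrier of macrophages (chromosome 2, 27021363 to 27027998), and was at 5.26, 6.14 and 11.8 CPM in microglia. In BMDM 1 to 5 it was at 0.666, 0.616, 5.83, 10.03 and 1.66 CPM, a 16.3-fold range in which 3 libraries lay below all microglia. The low values rest on 5, 5 and 12 counts. Its log2 fold change was -1.04 (SE 1.03, 95% interval -3.23 to 1.15, adjusted p = 0.769), or -1.67 with BMDM 1 to 3 alone (SE 0.90, adjusted p = 0.241). Slc2a8 encodes GLUT8 (chromosome 2, 32972990 to 32982083) and was at 10.9, 9.55 and 16.1 CPM in microglia. In BMDM it was at 4.00, 8.87, 7.66, 18.1 and 6.36 CPM. BMDM 4 was the highest library of all 8, and the other 4 lay below every microglia library. Its log2 fold change was -0.44 (SE 0.60, 95% interval -1.72 to 0.84, adjusted p = 0.850), or -0.81 with BMDM 1 to 3 alone (SE 0.47, adjusted p = 0.274).

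Slc2a9, the gene of the urate carrier GLUT9 (chromosome 5, 38349273 to 38503143), had the highest fold toward BMDM of the 9. It was at 18.0, 35.1 and 12.2 CPM in microglia 1, 2 and 3. BMDM 1 to 3 held 59.1, 79.3 and 35.5 CPM, and BMDM 4 and 5 held 10.7 and 25.3. BMDM 1 to 3 lay above every microglia library, BMDM 3 narrowly, while BMDM 4 was the lowest of all 8. Over all libraries the gene was not called (log2 fold change 0.95, SE 0.57, 95% interval -0.26 to 2.15, adjusted p = 0.532). With BMDM 1 to 3 alone it was called higher, at 1.42 (SE 0.42, adjusted p = 0.0448). In that fit 3 of the 9 genes were called, Slc2a9 higher and Slc2a3 and Slc2a5 lower, where 14.5% of all genes were called in either direction; the share of Gm42418 separated the groups in it as well, and its part in these calls was not tested.

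The make-up of hexose carrier mRNA was next expressed as each gene's share of the counts of the 6 SLC2 genes. The libraries count the 3′ end of each transcript, so counts were not divided by transcript length, and the share is one of transcript ends. Slc2a5 took 44.2% (exact 95% interval 42.5 to 45.9), 14.1% (12.4 to 16.0) and 46.0% (43.4 to 48.5) in microglia 1, 2 and 3. In BMDM its share was 0.620%, 0.670%, 7.87%, 0% (0 of 653 counts, exact 95% interval 0 to 0.563%) and 1.64%. Slc2a1 took 31.2%, 42.0% and 25.8% in microglia and 43.2% to 62.6% in BMDM. Slc2a9 took 7.29% to 22.8% in microglia, 45.9% and 48.0% in BMDM 1 and 2, and 10.3% to 24.9% in BMDM 3 to 5. Slc2a1 thus led in microglia 2 and in BMDM 1, 3, 4 and 5, Slc2a9 led in BMDM 2 and came close in BMDM 1, and Slc2a5 led in microglia 1 and 3. The 6 genes together summed to 154 to 176 CPM in microglia and 104 to 165 CPM in BMDM, ranges that overlapped.

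**Figure D2:**
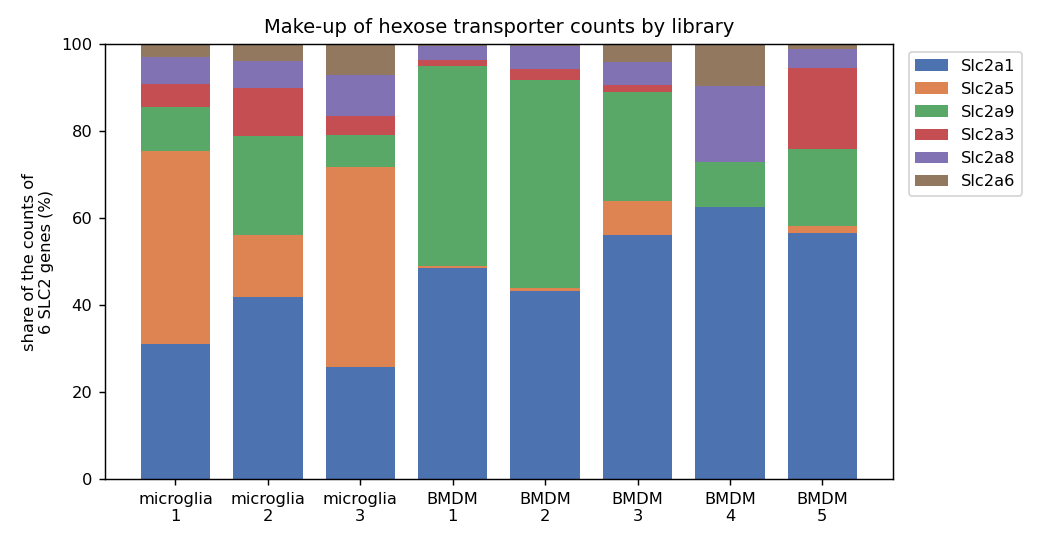
Share of the counts of 6 SLC2 genes taken by each gene (vertical axis, percent) in each library (horizontal axis). Each bar adds up to the counts of these 6 genes, and Slc2a12 is not among them. The Slc2a5 part makes up 14.1% to 46.0% in microglia and at most 7.87% in BMDM.

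The lactate carriers were compared next. Slc16a3 encodes MCT4, a carrier of low affinity that exports lactate from glycolytic cells (chromosome 11, 120948480 to 120960868). It was at 64.0, 64.2 and 113 CPM in microglia. BMDM 1 to 3 held 46.2, 59.4 and 74.6 CPM, and BMDM 4 and 5 held 179 and 258 CPM. BMDM thus split around the microglia range, with BMDM 1 and 2 below it, BMDM 3 within it and BMDM 4 and 5 above it. The log2 fold change was 0.62 (SE 0.53, 95% interval -0.52 to 1.76, adjusted p = 0.730), and its sign turned with BMDM 1 to 3 alone (-0.40, SE 0.30, adjusted p = 0.399). The BMDM libraries high in Slc16a3 were the 2 with few detected genes and much Gm42418 (41.2% and 48.9%). Microglia 2 and 3 had similar shares of Gm42418 (43.4% and 47%), with Slc16a3 at 64.2 and 113 CPM. The part of these library traits, or of RNA quality, in the Slc16a3 values was not tested.

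Slc16a1 encodes MCT1, which moves lactate and pyruvate in either direction (chromosome 3, 104638668 to 104658462). It was at 20.2, 14.99 and 22.6 CPM in microglia. In BMDM 1 to 5 it was at 1.07, 9.85, 2.97, 17.0 and 26.5 CPM, so that BMDM 1 to 3 lay below every microglia library, BMDM 4 among them and BMDM 5 above. The value of BMDM 1 rests on 8 counts. The log2 fold change was -0.75 (SE 0.74, 95% interval -2.32 to 0.83, adjusted p = 0.768). With BMDM 1 to 3 alone it was -2.03 and missed the threshold (SE 0.65, adjusted p = 0.0583). Slc16a1 followed Nes, 1 of the 8 astrocyte and tumor cell markers, more closely than any other gene compared (Pearson r = 0.973 over 8 libraries). Vrk1 (0.965) and Rack1 (0.948), which are not in that list, came next. In BMDM 4, with Slc16a1 at 17.0 CPM, Olig2 (0.159), Sox2 (6.21) and Slc1a3 (0) were at their lowest of all 8 libraries. Gfap (9.23) and Slc1a2 (25.3) were at their highest there. The sum of those markers was higher in microglia, where Slc1a3 alone gave 84.6 to 134 CPM, but Gfap (means of 0.718 CPM in microglia and 2.74 in BMDM), Slc1a2 (6.65 and 9.13) and Aqp4 were not. The part of tumor cells in the Slc16a1 counts was not tested. Gm43581, a model within an intron of Slc16a1 on its strand, had 381 counts against 1149 of Slc16a1, and shares no exon with it.

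Bsg encodes basigin, the chaperone that carries MCT1 and MCT4 to the cell surface (chromosome 10, 79704491 to 79711969). It was at 74.2, 83.2 and 136 CPM in microglia. In BMDM it was at 46.6, 68.0, 46.9, 78.2 and 40.2 CPM, with 4 of 5 libraries below all microglia and BMDM 4 above microglia 1. The log2 fold change was -0.81 (SE 0.35, 95% interval -1.55 to -0.06). Its unadjusted p was 0.0358 and its adjusted p 0.314. With Slc2a5, it made 2 of 9 genes that were lower at an unadjusted p under 0.05, where 7.27% of all genes were. The value was -0.84 with BMDM 1 to 3 alone (SE 0.30, adjusted p = 0.0812).

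The plot of log2 fold changes gives these differences with and without BMDM 4 and 5. The median of the 9 genes was -0.68, against 0.08 over all genes tested, with 3 genes above 0 and 6 below. With BMDM 1 to 3 alone the medians were -0.84 and 0.09. Separation of the groups without overlap was seen for 1 of the 9 genes and for 13% of all genes tested.

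**Figure D3:**
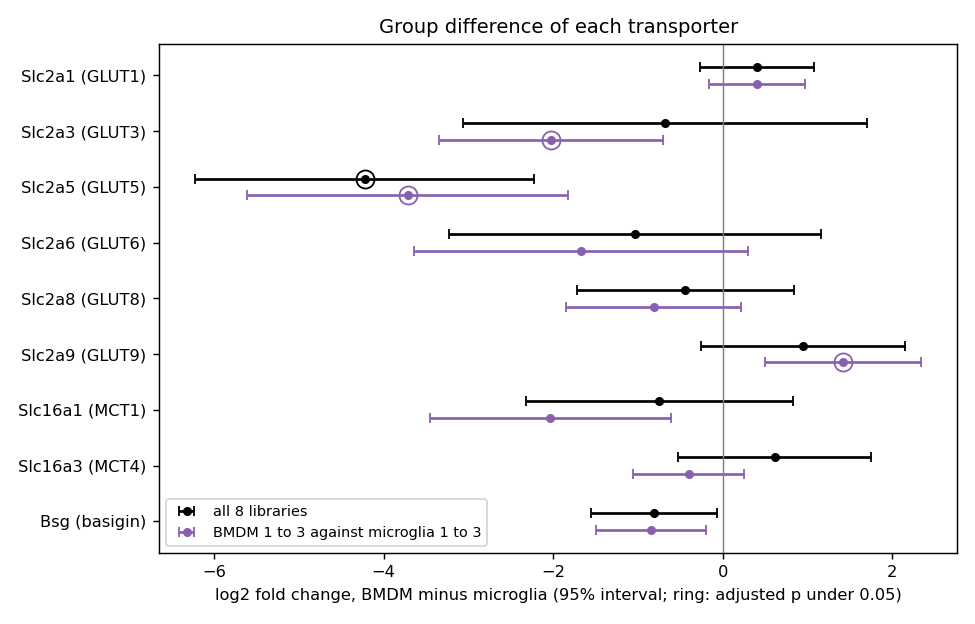
Log2 fold change, BMDM minus microglia (horizontal axis), of each gene with its 95% interval, from all 8 libraries (black) and from BMDM 1 to 3 against microglia 1 to 3 (purple); a ring marks an adjusted p under 0.05. Slc2a5 is ringed in both, Slc2a3 and Slc2a9 in the second, and Slc16a3 changes sign.

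The promoters of the 2 lactate carriers are shown because the ratio of their counts is compared next. That of Slc16a1 is chr3:104638414-104638713 and that of Slc16a3 is chr11:120948817-120949116, both on the forward strand, with the same 4 motifs in capitals.
Slc16a1: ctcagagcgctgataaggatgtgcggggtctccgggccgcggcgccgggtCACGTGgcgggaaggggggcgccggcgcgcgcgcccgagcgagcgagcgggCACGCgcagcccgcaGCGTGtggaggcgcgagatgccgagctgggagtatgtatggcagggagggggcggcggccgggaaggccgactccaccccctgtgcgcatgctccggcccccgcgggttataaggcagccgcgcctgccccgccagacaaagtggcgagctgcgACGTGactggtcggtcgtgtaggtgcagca
Slc16a3: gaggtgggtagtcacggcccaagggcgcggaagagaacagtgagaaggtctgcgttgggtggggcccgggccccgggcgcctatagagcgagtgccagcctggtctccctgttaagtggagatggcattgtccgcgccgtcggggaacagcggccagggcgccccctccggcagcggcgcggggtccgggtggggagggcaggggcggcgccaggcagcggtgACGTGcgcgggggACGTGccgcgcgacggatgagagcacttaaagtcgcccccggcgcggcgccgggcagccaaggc
The Slc16a3 window held ACGTG 27 and 14 bases before the start. In Slc16a1 the E box CACGTG lay 200 bases before the start, an ACGTG began 21 bases after it, and GCGTG occurred on each strand. ACGTG was held by 3 of the 7 promoters, GCGTG by 4, CACGTG by 1 and GAGGAA by 0.

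Ratios of 2 genes inside a library do not depend on scaling between libraries, so they compare 1 carrier with another directly. For Slc16a3 to Slc16a1 the log2 ratio was 1.66, 2.09 and 2.33 in microglia and 5.35, 2.58, 4.62, 3.39 and 3.28 in BMDM. Every BMDM library lay above every microglia library. MCT1 transcripts made up 16.6% to 24.0% of the MCT1 and MCT4 counts in microglia and 2.25% to 14.2% in BMDM. Microglia averaged 2.03 ± 0.34 (SD, n = 3) and BMDM 3.85 ± 1.12 (n = 5), a difference of 1.82 (two-sided exact permutation p = 0.0357, the smallest that 56 assignments allow, or 0.0536 adjusted over the 3 ratios tested). The difference was 2.16 with BMDM 1 to 3 alone, given with no test. For Slc2a5 to Slc2a1 the ratio was 0.50, -1.57 and 0.83 in microglia and -6.17, -5.93, -2.83, -9.68 and -5.07 in BMDM, again without overlap. The value of BMDM 4 rests on 0 counts of Slc2a5 and on the added 0.5. The difference was -5.86 (exact permutation p = 0.0357, adjusted 0.0536), or -4.90 with BMDM 1 to 3 alone. Slc2a5 itself had no overlap between the groups and Slc2a1 varied little, so this ratio largely restates the Slc2a5 difference. For Slc2a3 to Slc2a1 the ratio was -2.58, -1.94 and -2.57 in microglia and -5.12, -4.12, -5.09, -9.68 and -1.61 in BMDM, where BMDM 5 lay above all microglia and BMDM 4 rests on 0 counts of Slc2a3 and the added 0.5. That difference was -2.76 (exact permutation p = 0.143, adjusted 0.143), or -2.41 with BMDM 1 to 3 alone, -1.62 without BMDM 4 and -3.64 without BMDM 5. None of the 3 passed after adjustment. With 56 assignments, none could pass unless all 3 ratios reached the smallest p, so no conclusion is drawn from this miss.

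**Figure D4:**
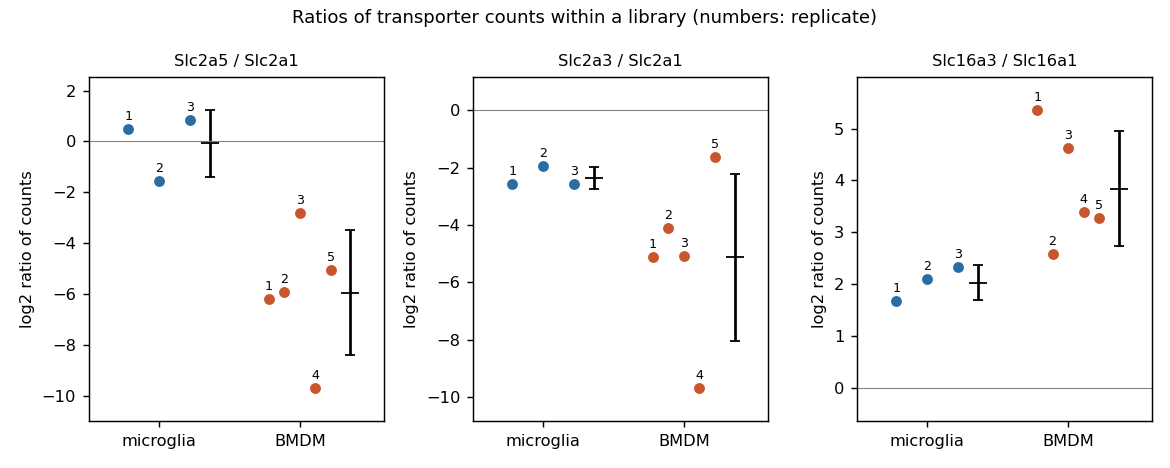
Log2 ratio of the counts of 2 genes within each library (vertical axis, 0.5 added to each count), for Slc2a5 to Slc2a1, Slc2a3 to Slc2a1 and Slc16a3 to Slc16a1; numbers are replicate numbers and bars give mean and SD. The groups do not overlap in the first and last panel, and BMDM 5 lies above microglia in the middle one.

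The genes whose pattern over the 8 libraries was most like each carrier were taken by Pearson correlation of log2 CPM, as a description, among named genes whose mean was 20 CPM or more. For Slc2a5 these were Fgd2 (r = 0.991), Bicd2 (0.984) and Ufl1 (0.976), whose own log2 fold changes were smaller (-1.24, -1.07 and -1.11, none called). For Slc16a3 they were Rit1 (0.978), Ciz1 (0.975) and Tent4b (0.967), and for Slc2a9 Socs2 (0.952), Mt2 (0.946) and Pomp (0.946). Slc2a1 was most like Hdgf (0.966), Slc2a3 like Nudcd2 (0.969), Slc2a6 like Rbm22 (0.963), Slc2a8 like Dph6 (0.928) and Bsg like Neurl1a (0.949). Among the carriers themselves, Slc2a6 and Slc2a8 had an r of 0.787, and Slc2a9 ran against both (-0.840 and -0.760). These values share 8 libraries, their depth and their scaling, and with 4885 genes or more compared each time, the highest r were picked from many.

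Other genes of sugar and lactate handling were taken from 4 lists. Of 11 other hexose and sodium-glucose carriers, 2 passed the filter and 0 were called. These were Slc2a12 (GLUT12; 1.14, SE 1.18, adjusted p = 0.784, or 1.43 with BMDM 1 to 3 alone) and Slc50a1, a SWEET carrier (-0.55, SE 0.59, adjusted p = 0.800, or -0.93 with BMDM 1 to 3 alone). The insulin-responsive carrier gene Slc2a4 and the liver carrier gene Slc2a2 had 23 and 5 counts in all libraries together and were not tested. Among other monocarboxylate and pyruvate carriers and chaperones, 10 of 18 were tested, 1 was higher and 0 lower in BMDM, where 1.11% of all genes were higher and 0.814% lower. The median of the list was -0.14, or -0.20 with BMDM 1 to 3 alone.

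The gene higher in BMDM in that list was Emb, which encodes embigin, a relative of basigin that escorts MCT2. Emb was at 7.89, 17.2 and 2.89 CPM in microglia and at 88.0, 95.1, 53.3, 40.0 and 56.5 CPM in BMDM. All BMDM libraries lay above all microglia libraries. Its log2 fold change was 2.83 (SE 0.55, adjusted p = 0.0148), or 3.08 with BMDM 1 to 3 alone (adjusted p = 0.00455). The call was lost without microglia 1 (adjusted p = 0.0709) or microglia 3 (0.0719), and without microglia 2 the value was 3.56. Basigin's gene and embigin's gene thus had fold changes of opposite sign, of which that of Emb alone passed.

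For sugar phosphorylation, fructose use and lactate conversion, 12 of 16 genes were tested and none was called in either direction (0 by edgeR; 3 higher and 1 lower at an unadjusted p under 0.05, where 6.49% of all genes were higher and 7.27% lower), with a median of 0.44, or 0.59 with BMDM 1 to 3 alone. The smallest p belonged to Ldhb, a lactate dehydrogenase subunit, at -2.61 (SE 0.83, adjusted p = 0.145). Ldhb was at 47.2, 48.6 and 67.7 CPM in microglia and at 13.2, 14.8, 13.96, 2.55 and 0 CPM in BMDM. It was called lower with BMDM 1 to 3 alone (-1.94, SE 0.28, adjusted p = 0.00195) and without BMDM 5 (adjusted p = 0.0189), and also with no filter (0.000441), with limma-voom with quality weights (0.0148) and with the replicate block (0.000630). Hk3, a hexokinase, was at 1.30 (SE 0.47, adjusted p = 0.206), or 0.90 with BMDM 1 to 3 alone (adjusted p = 0.0725). Ldha, the gene of the other main subunit of lactate dehydrogenase, was at 1.04 (SE 0.41, adjusted p = 0.249), and was called higher with BMDM 1 to 3 alone (1.29, adjusted p = 0.0305), quality weights (0.0152) and the replicate block (0.00342). Khk, the kinase that begins fructose breakdown, was at -0.16 (SE 0.47, adjusted p = 0.943), or -0.25 with BMDM 1 to 3 alone.

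Of 18 regulators of carrier expression or traffic, all were tested, 1 was lower and 0 higher in BMDM, where 0.814% of all genes were lower and 1.11% higher. The median was -0.09, or -0.47 with BMDM 1 to 3 alone. The gene called was Mlxipl, which encodes ChREBP, a sugar-responsive transcription factor known to drive Slc2a5 in the gut. Mlxipl had 1095, 366 and 652 counts in microglia and 60, 23, 35, 0 and 0 in BMDM. In CPM these were 57.6, 36.8 and 72.5 against 7.99, 2.83, 4.00, 0 and 0, without overlap. Its log2 fold change was -4.21 (SE 0.95, adjusted p = 0.0352), or -3.48 with BMDM 1 to 3 alone (SE 0.43, adjusted p = 0.00108). Leaving out any microglia library ended the call (adjusted p from 0.210 to 0.295), as did leaving out BMDM 2 (0.0807) or BMDM 3 (0.0947), a stricter filter (0.0572), RLE factors (0.0512), library totals (0.0981) and DESeq2 (0.129). Without BMDM 1 the value was -4.96. Hif1a, a transcription factor of the oxygen response that acts on Slc2a1 and Slc16a3, was at -0.20 (SE 0.35, adjusted p = 0.895), or -0.48 with BMDM 1 to 3 alone.

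With BMDM 1 to 3 alone, 3 genes of the carrier and chaperone list were higher (Emb, Mpc2 and Slc16a6), Ldha was higher and Ldhb lower in the sugar and lactate list, and Mlxipl, Myc and Txnip were lower among the regulators. These were 3 of 10, 2 of 12 (16.7%) and 3 of 18 (16.7%) genes tested, in a fit that called 6.35% of all genes higher, 8.11% lower and 14.5% in either direction, so the shares of the last 2 lists lay near that of all genes. Mpc2, Slc16a6, Myc and Txnip, like Slc2a2, Slc2a4, Khk and Hif1a, were named after their values were seen. Txnip encodes a protein that draws GLUT1 into the cell, and was at 236, 337 and 539 CPM in microglia against 108 to 218 CPM in BMDM, without overlap (adjusted p = 0.154 over all libraries, 0.0284 with BMDM 1 to 3 alone).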

How the data were processed

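One table of raw counts for each gene was deposited by the authors for 8 QuantSeq 3′ FWD libraries, per the labels' protocols sequenced as single reads of 75 bases. Tools listed in the submitters' processing notes were STAR, featureCounts, cutadapt, FastQC and DESeq2, with the mm10 build and no versions; how strand and multiply mapped reads were treated is not stated there or in the labels. No other gene's transcript matched the last 500 bases of the 9 genes' transcripts at 95% identity over 50 bases (blastn 2.17.0). Positions are from GENCODE M21 (GRCm38), which held 100% of identifiers.

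The test used edgeR 4.0.16 (R 4.3.3): filterByExpr (minimum count 10, total 15), TMM factors, robust quasi-likelihood fits, BMDM minus microglia over all 8 libraries, Benjamini-Hochberg over 16467 genes, threshold 0.05. Standard errors come from the F statistic. Ratios used 0.5 added to each count and a two-sided exact permutation test. The 9 genes, lists and tests were chosen with earlier results of these data known. Named genes were these 9, called genes of each list or else its 3 smallest p, and the 3 genes most like each of the 9. Of the like genes, only the first is printed for Slc2a1, Slc2a3, Slc2a6, Slc2a8 and Bsg. Protein sequences were not used here. No pair of libraries within a group agreed within sampling noise (lowest chi-square per degree of freedom 21.1). Tested on simulated counts (14673 genes, 50 changed genes per fold size), the test recovered 58% of true log2 changes of 4, 36% of 3, 8% of 2 and 0% of 1. Alternatives were DESeq2 1.42.0, limma-voom (limma 3.58.1) with and without quality weights, RLE factors, library totals, a stricter filter (10 CPM in 3 libraries), no filter, leaving out Gm42418 and mitochondrial rRNA, a replicate block, BMDM 1 to 3 alone, another ratio pseudocount (2), and each library left out.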

Additional observations from a re-analysis of the deposited data

Results flagged for a closer look

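Among the 9 genes, 2 had a BMDM library far from the other 4, by the gap to its nearest neighbour over the range of the group (critical value 0.710 for 5 libraries). For normally distributed values, chance gives such a gap in about 1 of 20 groups, and 9 were examined. The rule was applied to CPM on the linear scale, partly from low counts, where the rate by chance was not determined. Slc2a3 was at 26.5 CPM in BMDM 5, against 0 to 4.06 CPM in the other BMDM libraries (gap over range 0.847). Slc2a5 was at 11.2 CPM in BMDM 3, against 0 to 2.35 CPM (0.790).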

How the results depend on the processing

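By edgeR with all libraries, 1 carrier was lower and 0 higher in BMDM. The count of lower carriers was 0 with library totals alone, 2 with limma-voom with quality weights (Slc2a5 and Slc16a1), 2 with only BMDM 1 to 3 and 5 with a replicate block, and ran from 0 to 1 with 1 library left out. That of higher carriers was 1 with only BMDM 1 to 3 and 1 with the replicate block, and stayed at 0 (0 to 0) with 1 library left out. Slc2a5 kept its direction in all these settings, from -5.75 to -3.72 on the log2 scale. Slc16a3 reversed, to -0.12 with limma-voom with quality weights, -0.40 with the replicate block and -0.40 with only BMDM 1 to 3; the other 8 carriers kept their sign. Slc2a1, Slc2a8, Slc2a12, Slc50a1 and Hk3 were called under none of these settings. Without BMDM 5 alone, Slc16a3 was at 0.14, Slc16a1 at -1.35 and Slc2a3 at -2.43. Leaving out 1 library, the Slc2a5 to Slc2a1 difference ran from -6.64 to -4.92, that of Slc2a3 to Slc2a1 from -3.64 (without BMDM 5) to -1.62 (without BMDM 4), and that of Slc16a3 to Slc16a1 from 1.44 to 2.13. With a pseudocount of 2 they were -5.33, -2.31 and 1.75. Library totals moved the median of all genes by 0.13 on the log2 scale, and no carrier changed sign under another scaling. All genes called numbered 317, and 104 (without microglia 3) to 1138 (without BMDM 5) with 1 library left out, 914 with DESeq2, 721 with no filter, 2731 with limma-voom with quality weights, 2340 with only BMDM 1 to 3 and 3223 with the replicate block.

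Whether replicate numbers pair the libraries could not be decided from 3 same-number pairs, and the labels do not say. Same-number deviations correlated at 0.279, 0.129 and -0.00649, and 4 of the 6 libraries numbered 1 to 3 correlated best with their own number. With the block, BMDM 4 and 5 have no microglia partner and add nothing to the group difference, and Slc2a3, Slc2a6, Slc16a1 and Bsg joined Slc2a5 as lower. The causes of these changes were not tested. Low counts limit Slc2a3, Slc2a5, Slc2a6 and Slc16a1 in single BMDM libraries.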
